A study of Homo sapiens with 2 samples.

Results

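The BCL2 family apoptosis regulators described here are 10 genes, chosen by name from the 58302 genes of the expression table, and all 10 had a row and passed the filter, which asked for 10 reads or more in either library. They were followed in Tu212 cells, an epithelial line that stands in for squamous carcinoma of the head and neck. The tested cells had received the pEZ plasmid encoding PRMT5, an arginine methyltransferase, and the control cells the empty pEZ vector, each for 48 h. Polyadenylated RNA gave 1 library per group, with 19908258 reads on genes for PRMT5 overexpression and 14119997 for the vector control. Every difference below therefore lacks a replicate check and describes these libraries. Reads were scaled by TMM (trimmed mean of M values) and given as CPM, counts scaled to the size of the library, and the log2 ratio is PRMT5 overexpression over vector control. Intervals are 95% Clopper-Pearson intervals, which cover counting error and no variation between cultures.

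Proteins of the BCL2 family decide whether the outer mitochondrial membrane is opened to release cytochrome c, the step that starts caspase activation from within the cell. The effectors BAX and BAK1 form the pore, survival members such as BCL2L1 (BCL-xL) and MCL1 hold them in check, and BH3-only members inhibit the survival proteins or activate the effectors. BH3-only genes are controlled largely through transcription and protein stability. Squamous carcinoma cells commonly depend on MCL1 and BCL-xL.

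What the members share is the BH3 stretch, by which they bind each other. It is shown as the coding sequence in GENCODE release 29, from the longest coding transcript with a match. The capitals mark 6 codons that open with a leucine codon and close with an aspartate codon, the conserved core of the motif. Each line holds 60 bases with 7 codons on either side of the core, first the 6 BH3-only genes, then the effectors and the survival genes.
BCL2L11: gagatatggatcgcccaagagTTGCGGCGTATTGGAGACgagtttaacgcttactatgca
BBC3: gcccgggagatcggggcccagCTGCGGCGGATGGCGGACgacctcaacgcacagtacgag
PMAIP1: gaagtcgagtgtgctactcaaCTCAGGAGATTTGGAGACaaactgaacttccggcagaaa
BID: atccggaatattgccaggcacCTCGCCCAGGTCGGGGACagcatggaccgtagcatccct
BAD: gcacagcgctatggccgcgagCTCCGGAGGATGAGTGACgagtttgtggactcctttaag
BIK: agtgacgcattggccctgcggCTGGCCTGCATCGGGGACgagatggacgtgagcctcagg
BAX: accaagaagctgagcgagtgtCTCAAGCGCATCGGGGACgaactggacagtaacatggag
BAK1: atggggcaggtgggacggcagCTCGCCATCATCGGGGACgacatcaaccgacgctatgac
BCL2L1: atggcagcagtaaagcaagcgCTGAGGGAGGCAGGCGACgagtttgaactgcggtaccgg
MCL1: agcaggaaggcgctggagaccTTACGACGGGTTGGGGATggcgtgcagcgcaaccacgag
Of the 18 core bases of BCL2L11, 13 were the same in BBC3 and 12 each in PMAIP1 and MCL1. BAK1 and BID shared the fewest, with 8 each. The core was found in 7 of the 17 protein-coding transcripts that GENCODE lists for BCL2L11. Splicing can leave it out, but why the other transcripts lack a match was not tested. Counts per gene cannot tell these transcripts apart.

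The members are scattered over the genome. In GRCh38, the BH3-only genes other than BCL2L11 lie as follows: BBC3 (ENSG00000105327) on chromosome 19 from 47220822 to 47232766 (minus strand), PMAIP1 (ENSG00000141682) on chromosome 18 from 59899948 to 59904306 (plus strand) and BID (ENSG00000015475) on chromosome 22 from 17734138 to 17774770 (minus strand). The others of that class are BAD (ENSG00000002330) on chromosome 11 from 64269830 to 64284704 (minus strand) and BIK (ENSG00000100290) on chromosome 22 from 43110748 to 43129712 (plus strand). The effector genes are BAX (ENSG00000087088) on chromosome 19 from 48954815 to 48961798 (plus strand) and BAK1 (ENSG00000030110) on chromosome 6 from 33572547 to 33580293 (minus strand). The survival genes are BCL2L1 (ENSG00000171552) on chromosome 20 from 31664452 to 31723989 (minus strand) and MCL1 (ENSG00000143384) on chromosome 1 from 150574551 to 150579738 (minus strand).

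BCL2L11, which encodes the BH3-only activator BIM, stood at 28.2 CPM in the PRMT5 overexpression library and 10.9 CPM in the vector control, from 556 and 155 reads. It was 2.59-fold higher (log2 ratio 1.37, interval 1.12 to 1.64). None of the other 9 members lay 1.3-fold or more apart. Thus 1 of 10 members was higher by 2-fold or more and 0 were lower by as much. That 1 call was lost with deposited FPKM at a pseudocount of 1 (log2 ratio 0.72). That pseudocount is above the 0.719 FPKM of BCL2L11 in the vector control, and it shrinks low values by construction. By the same threshold, 2.9% of all 17777 genes past the filter were that much higher and 1.94% lower, 4.84% in all. At 1.5-fold the members' count was the same, against 7.06% of genes higher and 5.33% lower, 12.4% in all. Few reads widen such shares, and all members but BIK averaged over 50 reads. Among the 13282 genes that averaged 50 reads or more, 0.798% were 2-fold higher and 0.806% lower, 1.6% in all, and at 1.5-fold these shares were 2.7%, 2.42% and 5.12%. In that set 52 genes, BCL2L11 among them, reached its ratio. The median log2 ratio of the members was -0.02, against 0.00 for all genes past the filter (quartiles -0.15 and 0.16).

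**Figure D1:**
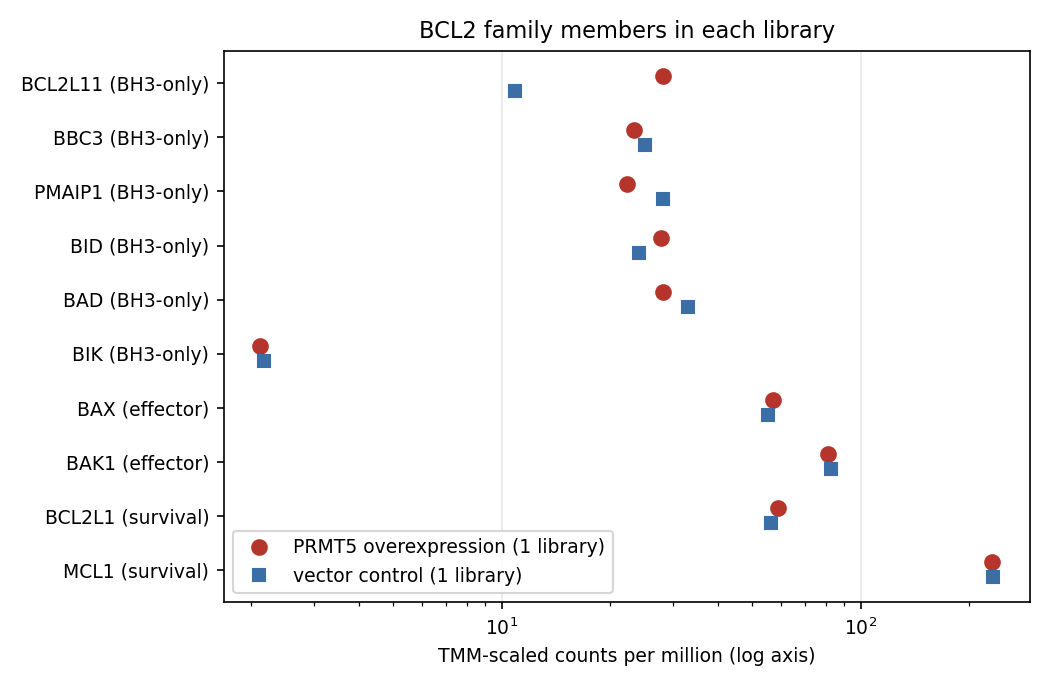
TMM-scaled CPM (log axis) of the 10 members in the PRMT5 overexpression library (circles) and the vector control library (squares), 1 library each. BCL2L11 stands at 28.2 CPM against 10.9 CPM, while the points of the other members lie close together.

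The gene (ENSG00000153094) lies on the plus strand of chromosome 2 from 111119378 to 111168447 in GRCh38. A long noncoding gene on the opposite strand, MIR4435-2HG, runs across it and shares 727 of its 6658 exon bases, or 10.9%. The shared bases form 1 stretch from 111164904 to 111165630, in the 3′ part of BCL2L11. MIR4435-2HG held 756 reads in the PRMT5 overexpression library and 351 in the vector control, a log2 ratio of 0.64 (0.46 to 0.83). Of its own tested stretches, 45.5% occur in other transcripts, mostly of the related gene CYTOR, so its count is uncertain. Use of strand in the counting was not given in the sources used here, and without it the reads on this stretch cannot be told apart. The pooled reads of both genes, 1312 in the PRMT5 overexpression library and 506 in the vector control, were at 0.91 (0.76 to 1.06), under the 2-fold threshold. Most of them were reads of MIR4435-2HG, so this is a value of the pair and not of BCL2L11 alone. The longest BCL2L11 transcript shared 0 of 519 tested stretches of 50 bases with transcripts of genes elsewhere.

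Other genes around BCL2L11, looked up after its value was seen, did not stand apart with it. On one side the nearest gene with 50 or more reads beyond MIR4435-2HG was BUB1, which encodes a mitotic checkpoint kinase, 441 kb away with a log2 ratio of 0.04. On the other it was ANAPC1, an anaphase-promoting complex subunit gene, 443 kb away with a log2 ratio of -0.07. The intervals of both held 0.

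The promoters of the members with the highest and the lowest log2 ratio, BCL2L11 and PMAIP1, are shown from RefSeq, 250 bases before to 50 after the start, both on the plus strand of GRCh38.p14. Capitals mark the forkhead core GTAAACA, bound by FOXO factors, and the GC box GGGCGG, bound by SP1, each searched on both strands. The windows are chr2:111120664-111120963 and chr18:59899746-59900045.
BCL2L11: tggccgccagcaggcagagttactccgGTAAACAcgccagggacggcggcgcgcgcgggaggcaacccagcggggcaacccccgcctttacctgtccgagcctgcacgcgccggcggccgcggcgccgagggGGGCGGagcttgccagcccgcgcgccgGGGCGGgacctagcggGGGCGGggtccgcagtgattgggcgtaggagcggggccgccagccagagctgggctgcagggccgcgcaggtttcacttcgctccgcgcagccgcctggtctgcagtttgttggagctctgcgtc
PMAIP1: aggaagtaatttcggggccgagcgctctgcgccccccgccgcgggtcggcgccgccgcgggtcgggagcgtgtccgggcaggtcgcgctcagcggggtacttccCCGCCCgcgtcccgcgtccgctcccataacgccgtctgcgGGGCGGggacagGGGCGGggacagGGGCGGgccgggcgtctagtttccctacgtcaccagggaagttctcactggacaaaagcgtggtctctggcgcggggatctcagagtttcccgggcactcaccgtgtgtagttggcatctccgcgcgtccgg
The BCL2L11 window held 1 forkhead core, which begins 223 bases before the start, and 3 GC boxes. The PMAIP1 window held 4 GC boxes and no forkhead core. Of 35116 RefSeq promoter windows of the same length, 3.42% held the forkhead core, 45% the GC box and 7.26% the E-box CACGTG, to which MYC binds. RefSeq windows were found for 8 of 10 members, BIK and MCL1 being the others. These 8 genes had 14 windows, since some have several starts, and of the 14 windows 1 held a forkhead core, 11 a GC box and 4 an E-box. By gene, 1 had a forkhead core, 7 a GC box and 3 (BAX, BBC3 and BID) an E-box in any window. The 2 windows were rich in G and C, at 74.7% and 71.3%, against a median of 58.7% over all windows.

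PMAIP1, which encodes the MCL1-binding protein NOXA, had 22.3 CPM in the PRMT5 overexpression library and 28.1 CPM in the vector control, from 440 and 401 reads. Its log2 ratio of -0.33 (-0.53 to -0.13) was the lowest among the members and stayed under 1.3-fold. BAD, whose product binds BCL-xL unless it is phosphorylated and held by 14-3-3 proteins, had 28.2 CPM and 33.0 CPM in the PRMT5 overexpression and vector control libraries. The log2 ratio of BAD was -0.23 (-0.41 to -0.05). BAD shares 404 of its 1708 exon bases with GPR137 on the opposite strand, which alone was at 0.18 (-0.06 to 0.42). The pooled reads of both were at -0.08 (-0.22 to 0.07), a value of the pair and not of BAD alone. BID, which links death receptors to mitochondria once caspase-8 has cleaved it, had 27.85 CPM in the PRMT5 overexpression library and 24.2 CPM in the vector control. The BID ratio of 0.20 on the log2 scale had an interval, 0.01 to 0.40, that took in 0 when total counts alone were used for scaling.

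BBC3, which encodes the protein PUMA, had 23.4 CPM in the PRMT5 overexpression library and 25.2 CPM in the vector control, a log2 ratio of -0.10 (-0.31 to 0.10). BIK, a BH3-only protein of the endoplasmic reticulum, had the fewest reads of the members, 42 in the PRMT5 overexpression library and 31 in the vector control. The BIK ratio was -0.03 on the log2 scale, and its interval of -0.73 to 0.69 could not exclude a 1.5-fold difference either way. In all, the intervals of BCL2L11 and BID lay above 0, those of PMAIP1 and BAD below it, and those of 6 members held it. Of the 13282 well-read genes, 17.1% had an interval above 0 and 17.3% below it, 34.4% in all, and of those averaging 300 to 600 reads 29.3% did, so 4 of 10 members is close to the share of genes in general.

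**Figure D2:**
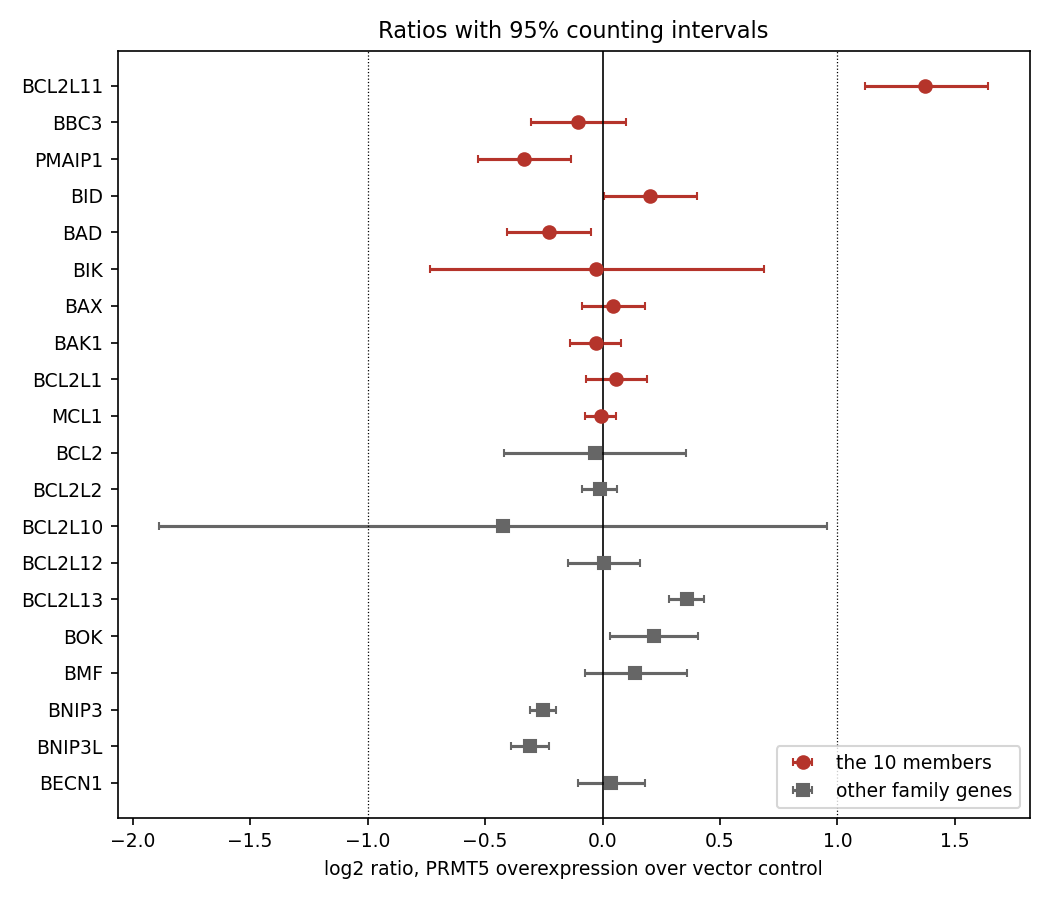
Log2 ratio of PRMT5 overexpression over vector control for the 10 members (circles) and 10 other measured family genes (squares). Bars are 95% counting intervals and dotted lines mark 2-fold. BCL2L11 at 1.37 is the point beyond 2-fold, and the wide intervals of BIK and BCL2L10 go with their few reads.

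The effectors had nearly the same level in both libraries. BAX had 57.0 CPM in the PRMT5 overexpression library and 55.2 CPM in the vector control, with a log2 ratio of 0.05 (-0.09 to 0.18). BAK1 had 80.9 CPM and 82.6 CPM in the PRMT5 overexpression and vector control libraries, with a log2 ratio of -0.03 (-0.14 to 0.08). Of the BAK1 stretches tested, 12.9% occur in other transcripts, mostly of its pseudogene BAK1P1, so its count is less certain. BAX took 41.3% of the reads on BAX and BAK1 in the PRMT5 overexpression library and 40.1% in the vector control, with intervals of 39.5% to 43.2% and 37.9% to 42.3%.

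The survival genes lay equally close. MCL1, a short-lived survival protein, was the most abundant member by reads, with 233 CPM in the PRMT5 overexpression library and 234 CPM in the vector control. The MCL1 ratio of -0.01 on the log2 scale, which turned to 0.01 with DESeq2 size factors, had the narrowest interval of the members, -0.07 to 0.06. BCL2L1 had 58.8 CPM and 56.5 CPM in the PRMT5 overexpression and vector control libraries, with a log2 ratio of 0.06 (-0.07 to 0.19). Its antisense gene ABALON shares 1424 of its 3314 exon bases but held few reads, 86 in the PRMT5 overexpression library and 54 in the vector control, and the sum had a log2 ratio of 0.07. Splice forms of BCL2L1 and MCL1 with opposite roles were not separated by these counts.

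**Figure D3:**
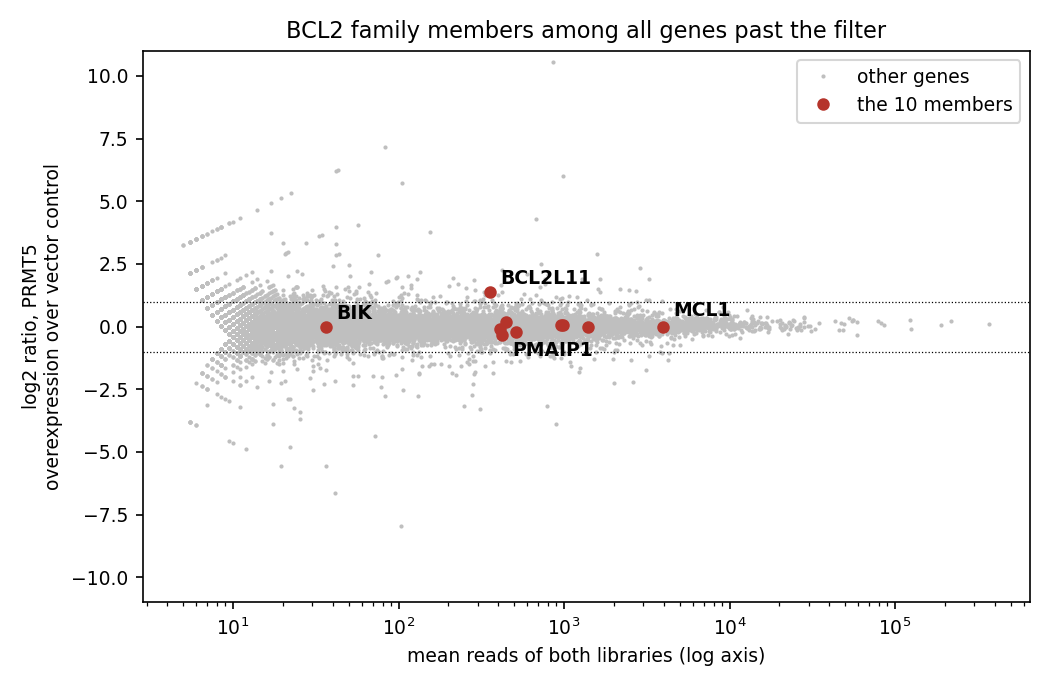
Log2 ratio of PRMT5 overexpression over vector control against the mean reads of both libraries (log axis) for 17777 genes past the filter (grey) and the 10 members (red). Dotted lines mark 2-fold. The spread is widest at few reads, where BIK lies near 0, and BCL2L11 at 1.37 lies above most genes with a like number of reads.

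Summed by role, the family differed little apart from BCL2L11. The 6 BH3-only genes together had 132 CPM in the PRMT5 overexpression library and 124 CPM in the vector control, a log2 ratio of 0.10 (0.01 to 0.18). Without BCL2L11 the other 5 had 104 CPM and 113 CPM in the PRMT5 overexpression and vector control libraries, a log2 ratio of -0.12 (-0.21 to -0.02). Both sums kept their sign under all scalings, but neither interval stayed clear of 0 under all of them. The upper limit without BCL2L11 was 0.0011 with DESeq2 size factors, and the lower limit of all 6 was -0.02 with total counts alone. The effectors together had a log2 ratio of 0.00 (-0.08 to 0.09), as did the survival genes (-0.05 to 0.06).

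Within the BH3-only genes the make-up differed, and shares of reads do not depend on the scaling between libraries. BCL2L11 took 21.3% of the BH3-only reads in the PRMT5 overexpression library, with an interval of 19.8% to 23.0%, and 8.80% in the vector control, with an interval of 7.52% to 10.2%. PMAIP1 took 16.9% and 22.8% in the PRMT5 overexpression and vector control libraries, and BAD 21.3% and 26.7%, with intervals that did not overlap for either gene. These shares are tied to each other, since a larger share for BCL2L11 leaves less for the rest. For every read on MCL1 there were 0.121 reads on BCL2L11 in the PRMT5 overexpression library and 0.0464 in the vector control. Across the other 9 members, this ratio to BCL2L11 was between 2.25 times (BID) and 3.27 times (PMAIP1) as high in the PRMT5 overexpression library.

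**Figure D4:**
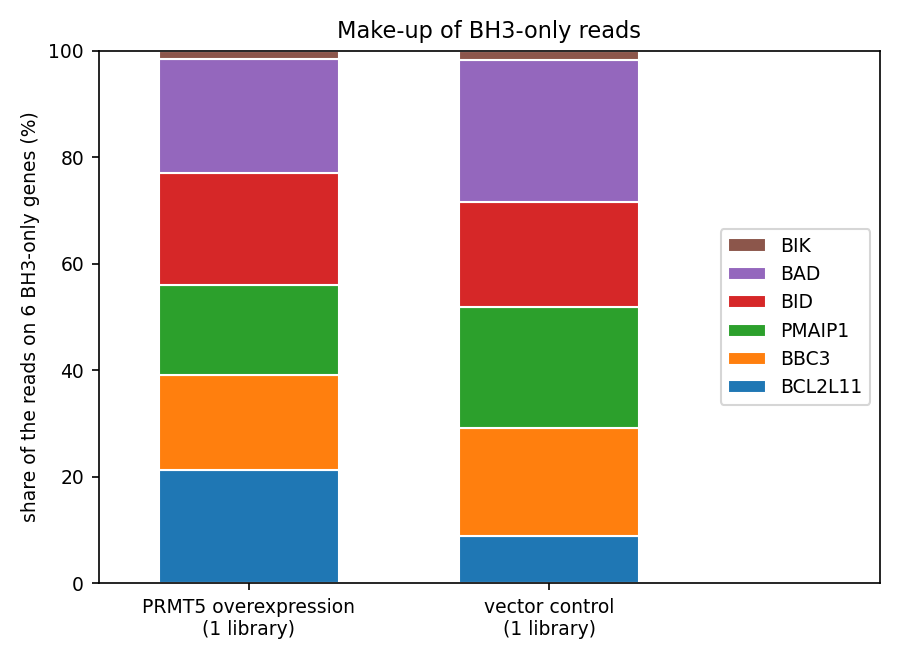
Share of the reads on the 6 BH3-only genes that fell on each, in the PRMT5 overexpression library (left) and the vector control library (right). BCL2L11, at the bottom, takes 21.3% against 8.80%.

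Levels can be compared between genes only per length, here as CPM per kilobase of merged exons. Merged exons take in every annotated transcript, whether or not these cells use it. The order below rests on that length, and its intervals cover counting error only. In the PRMT5 overexpression library MCL1 stood highest at 53.2, then BAK1 at 36.6, BAX at 22.0, BCL2L1 at 17.7, BAD at 16.5 and PMAIP1 at 9.99. BBC3 at 7.37, BID at 6.26, BCL2L11 at 4.24 and BIK at 2.24 followed. In that library the counting intervals of BCL2L1 and BAD overlapped, as did those of BBC3 and BID. In the vector control BAD, at 19.3, lay between BAX at 21.3 and BCL2L1 at 17.0, with intervals that overlapped both. There BCL2L11, at 1.63, was last, with an interval that overlapped that of BIK at 2.28. BCL2L11 thus stood above BIK in the PRMT5 overexpression library on this scale, and was still the second lowest of the members. The deposited FPKM (fragments per kilobase, scaled to library size) put it last in both libraries, at 1.83 and 0.719 FPKM in the PRMT5 overexpression and vector control libraries. FPKM had been divided by the summed length of all distinct annotated exons, overlaps counted again, which is 15272 bases for BCL2L11 with its 25 transcripts and 953 bases for BIK with 1. FPKM therefore lowers genes with many annotated transcripts.

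Of 14 further family genes, 10 passed the filter, and 0 were 1.5-fold or more apart, with a median log2 ratio of 0.00. The list's members lay on both sides of 0, 5 above and 5 below, or 6 and 4 with DESeq2 size factors. BCL2 itself had few reads, 135 in the PRMT5 overexpression library and 100 in the vector control, and a log2 ratio of -0.03 (-0.42 to 0.35). BCL2L2, which encodes the survival protein BCL-W, had 178 CPM and 179 CPM in the PRMT5 overexpression and vector control libraries. BCL2L13, a mitochondrial family member linked to mitophagy, had 205 CPM in the PRMT5 overexpression library and 159.5 CPM in the vector control, a log2 ratio of 0.36 (0.28 to 0.43). The effector relative BOK was at 0.22 and the BH3-only gene BMF at 0.14.

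The mitophagy receptor genes BNIP3 and BNIP3L, both induced by low oxygen, had log2 ratios of -0.25 (-0.31 to -0.20) and -0.31 (-0.39 to -0.23). Of the BNIP3 stretches tested, 10.9% occur in other transcripts, mostly of BNIP3P1. BNIP3L had 135 CPM in the PRMT5 overexpression library and 168 CPM in the vector control. BCL2L12 was at 0.01. BECN1, the autophagy gene with a BH3 stretch, was at 0.04. PSME3 shares 300 of the 6414 exon bases of BECN1. Alone it was at 1.20, from 1824 reads in the PRMT5 overexpression library and 575 in the vector control. The pooled reads of both were at 0.67, a value of the pair and not of BECN1 alone. BCL2L10 was at -0.425 from 10 reads in each library, with an interval that held 0. BCL2A1, BCL2L14, BCL2L15 and HRK had at most 4 reads in either library and give no ratio.

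Downstream of the mitochondria, the 12 genes of the outer membrane and the apoptosome had a median log2 ratio of -0.03, and 0 were 1.5-fold apart. CYCS, which encodes cytochrome c, was at 0.20 and the channel gene VDAC1, with 19.9% of its stretches also in other transcripts, at 0.05. Of 7 caspase genes, 1 was 1.5-fold or more higher. This was CASP2, an initiator caspase that can cleave BID, with 28.2 CPM in the PRMT5 overexpression library and 15.3 CPM in the vector control, a log2 ratio of 0.88 (0.65 to 1.11). CASP9, which the apoptosome activates, was at -0.12. Of 6 measured IAP (inhibitor of apoptosis) genes, 5 were below 0, or 4 with DESeq2 size factors, with a median of -0.14. Of all genes past the filter, 50.42% were above 0. BIRC6 and BIRC5 were at -0.01 and -0.13. XIAP, which blocks caspases directly, was named after its value was seen: at -0.56 (-0.79 to -0.34), it was just short of 1.5-fold.

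The 11 death receptor and adaptor genes had a median log2 ratio of 0.08, and 0 were 1.5-fold apart. The TRAIL receptor gene TNFRSF10B was at 0.00 and the adaptor FADD at 0.05. Of 10 genes for transcription factors known to act on BH3-only genes, 1 was 1.5-fold higher. It was TP73, at 0.71 (0.55 to 0.88), which shares 633 of its 6763 exon bases with TP73-AS1 on the opposite strand. TP73-AS1 alone was at -0.37 (-0.52 to -0.22), from 742 reads in the PRMT5 overexpression library and 695 in the vector control. The pooled reads of both were at 0.14, a value of the pair and not of TP73 alone. The FOXO factors that activate BCL2L11 in many cells had 177 CPM for FOXO3 in the PRMT5 overexpression library and 186 CPM in the vector control, and log2 ratios of -0.07 for FOXO3 and 0.00 for FOXO1. FOXO4 was at 0.32 (0.08 to 0.57), from 372 reads in the PRMT5 overexpression library and 215 in the vector control. These values and that of DDIT3 at -0.52 were chosen for naming after they were seen. DDIT3, also known as CHOP, shares exon bases with the well-read genes MARS and MBD6. The pooled reads of these genes and DDIT3, most of them from MARS, were at -0.02, which is not a value of DDIT3 alone. Of the FOXO3 stretches tested, 29.2% occur in other transcripts, mostly of FOXO3B.

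Of 23 genes for kinases, binding proteins and ubiquitin enzymes that act on the members, 1 was 1.5-fold or more apart. YWHAB, which encodes a 14-3-3 protein that holds phosphorylated BAD in the cytosol, had 246 CPM in the PRMT5 overexpression library and 116 CPM in the vector control. It was 2.11-fold higher, with a log2 ratio of 1.08 (1.00 to 1.16), and shares neither exon bases with a counted gene nor any tested stretch with transcripts elsewhere. The other 14-3-3 genes on the list ran from -0.02 for YWHAZ to 0.25 for SFN. AKT1, a kinase that phosphorylates BAD, was named after its value was seen and was at -0.55 (-0.65 to -0.45). Over all 7 lists, 3 of 79 measured genes were 1.5-fold or more higher and 0 lower. Of all genes past the filter, 7.06% were as much higher and 5.33% lower. Among those averaging 50 reads or more, as most listed genes did, these shares were 2.7% and 2.42%.

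**Figure D5:**
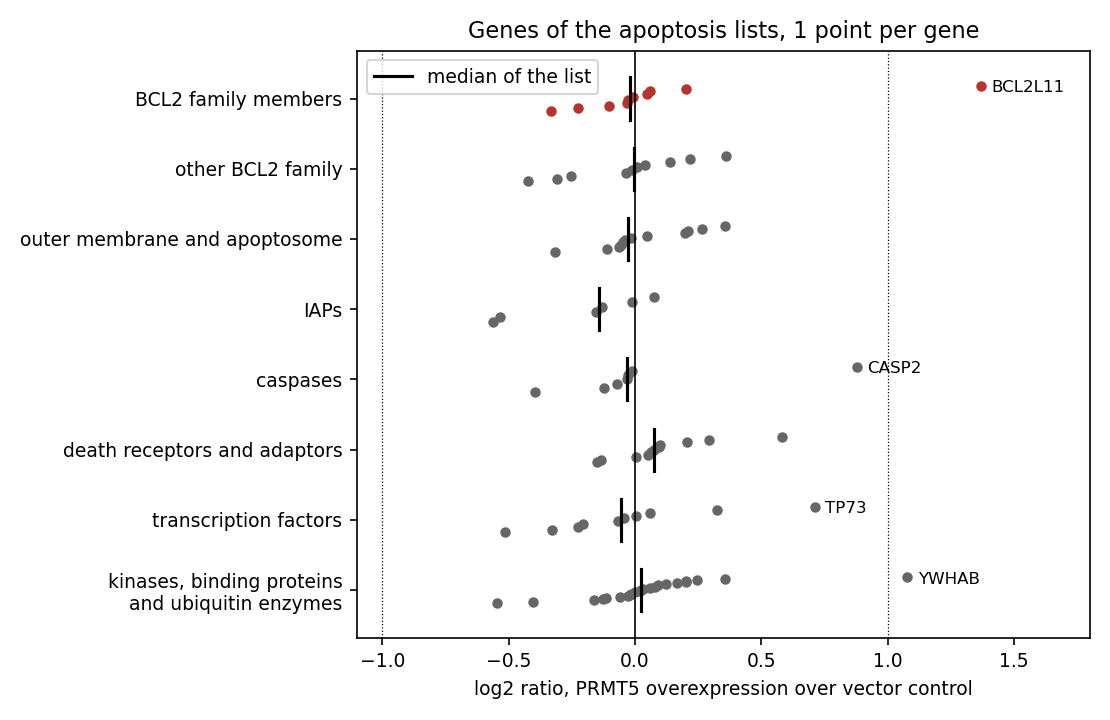
Log2 ratio of PRMT5 overexpression over vector control for each measured gene of the 10 members (red) and of 7 lists of related genes (grey). Dotted lines mark 2-fold and short black lines are list medians, which lie between -0.14 and 0.08. The named points are BCL2L11 at 1.37, CASP2 at 0.88, TP73 at 0.71 and YWHAB at 1.08.

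PRMT5 itself stood at 293 CPM in the library labelled PRMT5 overexpression and 145 CPM in the vector control, a log2 ratio of 1.01. All 10 epithelial markers were well read, and 9 of 10 had a log2 ratio above 0 under each scaling, with a median of 0.15. Of all genes averaging 50 reads or more, 48.84% were above 0 with TMM. The reads of these markers summed to 229427 in the PRMT5 overexpression library and 149465 in the vector control, or 11640 and 10480 CPM. KRT5 had 5077 CPM and 4575 CPM in these libraries, and TP63, the marker below 0, had 520 CPM and 536 CPM. The 5 fibroblast markers summed to 39 reads in the PRMT5 overexpression library and 78 in the vector control, or 1.98 and 5.47 CPM. All 4 that passed the filter were below 0. Of these, DCN (0 and 12 reads), COL1A2 (7 and 26) and COL3A1 (2 and 11) passed only through the vector control. Their direction was thus fixed by the filter and is not a result. PDGFRB (29 and 25) was at -0.24, with an interval that held 0. The 4 leukocyte markers summed to 11 and 22 reads, or 0.558 and 1.54 CPM. Unscaled reads were lower in the PRMT5 overexpression library for CD3E (0 and 6) and ITGAM (3 and 12), higher for PTPRC (4 and 0) and equal for CD14 (4 and 4). The 3 endothelial markers summed to 69 and 68 reads, or 3.5 and 4.77 CPM, nearly all on VWF. CDH5 was at 0 reads in both libraries and PECAM1 at 0 and 1. Reads of the mitochondrial genome made up 7.55% and 6.74% of the totals. The part of these differences in the BCL2L11 value was not tested, and in bulk RNA fewer cells of a type and less RNA per cell cannot be told apart.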

How the data were processed

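Tu212 cells gave 1 polyadenylated RNA-seq library per group, grouped by the labels' genotype. The submitters' processing notes name HISAT2 2.1.0, CASAVA 1.8, edgeR and StringTie 1.3.4b, and the builds GRCh38 and hg38, without roles. Per the file headers, the authors deposited for each gene its raw count in each library and its FPKM. All 4 value columns were used, 0 being left over.

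Rows of 1 symbol were summed. TMM factors (edgeR 4.0.16, R 4.3.3) came from genes that had 10 reads or more in either library, and were 0.990 for PRMT5 overexpression and 1.01 for the vector control. Log2 ratios used a prior count of 1 read. Thresholds were 2-fold and 1.5-fold. No p-value is given, since genes are not replicates. PCR reads are not independent molecules, so intervals cover counting error only. In simulated data, 95.7% of 17577 unchanged genes among 17777, for PRMT5 overexpression over vector control, had the true ratio in their interval.

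The deposited FPKM matched 1 fixed length per gene in both libraries, within 1%, in 100% of 11471 genes with over 100 reads in each. That length equalled the summed distinct exons of GENCODE release 29, within 1%, in 92.2% of them. Of the gene IDs, 58039 were found in that release, 56610 with the same start and end. Exon sharing counts bases on either strand. For shared sequence, the longest transcript was read in stretches of 50 bases, 10 bases apart, and each was looked for in transcripts of other genes.

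The members and lists were chosen with earlier results of these data known. Named were all members, PRMT5, the measured genes of the further family list, and, per list, up to 4 genes at 1.5-fold or more with a mean of 50 or more reads, or else the 2 best-read genes. CASP9, FOXO1, FOXO3, FOXO4, DDIT3, XIAP, AKT1, YWHAZ, SFN, BUB1, ANAPC1 and the cell type markers given by name were added after their values were seen. Some listed genes are not reported here by name. Python 3.11.15, pandas 2.3.3, scipy 1.17.1 and Biopython 1.88 were used.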

Additional observations from a re-analysis of the deposited data

How the results depend on the processing

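With 1 library per group, depth limits BIK most, and no result has a replicate check. Of 92 values recalculated for the members under other prior counts, scalings, filters, row choices, FPKM and sums over exon-sharing genes, 90 stayed within their counting intervals. The 2 others concerned BCL2L11. Its log2 ratio was 0.72 from deposited FPKM with a pseudocount of 1, which shrinks low values by construction and left 0 members at 2-fold. The reads of BCL2L11 pooled with those of MIR4435-2HG, the larger part of the sum, gave 0.91, also under 2-fold. Other scalings shifted the median of all genes by -0.028 to 0.024 on the log2 scale. TMM over all genes and the limit of a mean of 50 reads were chosen after seeing the data.

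For all genes at 2-fold or more, the counts of 516 higher and 344 lower were 267 and 227 at prior count 5, 2145 and 2872 without a filter, 136 and 118 if 50 reads were asked for, 238 and 219 for protein-coding genes alone, 75 and 54 from FPKM, and 106 and 107 where reads averaged at least 50. For 1.5-fold, 1255 higher and 947 lower turned into 4917 and 4346 without a filter, 442 and 348 if 50 reads were asked for, 571 and 602 for protein-coding genes alone, 326 and 223 from FPKM, and 358 and 322 where reads averaged at least 50. Fewer genes are tested in the stricter sets. A larger prior count and the FPKM pseudocount both shrink the ratios of low values by construction. How much of the fall this makes up was not tested.

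No paired analysis was possible because the design holds a single library on either side.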
